A study of Mus musculus with 2 samples.

Results

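The data described here are 1375 cytosines of CpG dinucleotides that lie in introns, outside promoters, and that were highly methylated in wildtype (wt) mouse embryonic fibroblasts (MEFs) but hardly methylated in MEFs lacking oestrogen receptor beta (ERβ). They were selected on their methylation: a position had to be above 80 % in wt MEFs and below 20 % in knock-out MEFs, with 5 or more reads in both libraries, to lie within an intron and no exon of any annotated transcript, and to overlap no annotated promoter. They make up 23.8 % of the 5787 positions that met the methylation and read criteria, the others being annotated to exons (1656), promoters (1637) or to no gene (1119), and the whole series covered 826937 cytosine positions in both libraries. DNA methylation was measured by reduced representation bisulfite sequencing (RRBS), in which DNA is cut with MspI at CCGG, size-selected and bisulfite-treated, so that an unmethylated cytosine is read as thymine and a methylated one as cytosine. The 2 groups were wt MEFs and βerko MEFs (ESR2 -/-), both of strain C57BL/6. The labels give neither the age nor the sex of the embryos, nor how many lines the batches came from. Each was represented by 1 library made from the pooled DNA of 3 batches, so no spread between replicates can be given and no difference between the groups was tested. All methylation values below are percentages of reads at 1 cytosine, and their intervals are exact 95 % binomial intervals that cover counting error only. PCR copies of a molecule cannot be recognised in these reads.

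Methyl groups on CpG cytosines are set by DNA methyltransferases and lost by replication without maintenance or by oxidation and repair. In most mammalian cells introns are methylated, while CpG islands at promoters are not. Introns also hold enhancers and alternative promoters, and at these elements methylation often differs between cell types. ERβ, encoded by Esr2, is a nuclear receptor that binds DNA at oestrogen response elements or through other transcription factors.

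The stretches below hold groups of these positions in 8 host genes and are shown for the spacing of the affected CpGs. They are reference sequence of the plus strand of NCBIM37 (mm9), and CG in capitals marks a CpG with a hypomethylated position, whereas a CpG in lower case was not covered in both libraries or did not meet the criteria. The coordinates are chr2:74530814-74530985 for Hoxd10, chr3:99061076-99061197 for Tbx15, chr4:107301735-107301819 for Glis1, chrX:11664227-11664306 for Bcor, chr4:136339654-136339880 for Ephb2, chr7:146767606-146767695 for Nkx6-2, chr4:116976605-116976681 for Rnf220 and chr2:167423012-167423066 for the transcript AK077405.
Hoxd10: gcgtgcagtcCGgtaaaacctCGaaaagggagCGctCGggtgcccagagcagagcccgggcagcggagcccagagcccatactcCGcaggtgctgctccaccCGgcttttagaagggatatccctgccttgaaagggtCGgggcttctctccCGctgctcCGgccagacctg
Tbx15: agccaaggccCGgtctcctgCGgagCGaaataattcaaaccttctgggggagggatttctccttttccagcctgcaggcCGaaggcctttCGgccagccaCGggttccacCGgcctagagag
Glis1: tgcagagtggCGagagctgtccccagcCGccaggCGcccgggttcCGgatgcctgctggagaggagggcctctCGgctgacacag
Bcor: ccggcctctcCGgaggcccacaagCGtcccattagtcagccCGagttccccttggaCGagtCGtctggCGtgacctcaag
Ephb2: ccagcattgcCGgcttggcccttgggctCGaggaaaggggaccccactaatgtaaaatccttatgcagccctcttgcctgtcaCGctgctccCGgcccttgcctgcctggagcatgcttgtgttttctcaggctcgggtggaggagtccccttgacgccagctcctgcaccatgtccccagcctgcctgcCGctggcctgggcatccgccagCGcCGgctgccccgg
Nkx6-2: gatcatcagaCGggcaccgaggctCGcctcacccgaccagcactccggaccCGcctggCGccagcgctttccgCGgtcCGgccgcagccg
Rnf220: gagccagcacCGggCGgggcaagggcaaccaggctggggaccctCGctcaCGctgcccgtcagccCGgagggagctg
AK077405: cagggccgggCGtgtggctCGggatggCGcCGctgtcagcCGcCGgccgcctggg

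In the stretch shown for Tbx15 all 7 CpGs held a hypomethylated position, and in that of Bcor 6 of 7, whereas in Nkx6-2 this was so for 6 of 13. The next stretches show single positions, 1 in Esr2 (chr12:77277775-77277836), the targeted gene, and 1 in Nav2 (chr7:56583455-56583516), which had no other covered cytosine within 100 bp. The Esr2 stretch ends on the C of a further CpG at 77277836, which was also lower in βerko but did not meet the wt criterion.
Esr2: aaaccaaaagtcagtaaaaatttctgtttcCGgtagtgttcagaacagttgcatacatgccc
Nav2: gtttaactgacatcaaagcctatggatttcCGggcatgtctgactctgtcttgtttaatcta

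The gene targeted in the knock-out, Esr2, itself contained 1 of the positions. At chr12:77277805, in the first intron and 441 bp from the transcript start, 100 % of 27 reads were methylated in wt (87.2 to 100 %) and 2.33 % of 43 reads in βerko (0.0589 to 12.3 %). The 3 other covered cytosines within 100 bp averaged 21.9 % in wt and 2.93 % in βerko. Of 17 covered positions within Esr2, 4 were lower by at least 20 percentage points in βerko. These 4 lay near the start of the gene, with 59.3 % against 2.33 % at 77277836, 52.1 % against 11.7 % at 77278036 and 41.7 % against 5 % at 77278039, in addition to the position above. Further into the gene 2 cytosines were higher in βerko, with 95.2 % in both cases against 42.9 % at 77233177 and 51.6 % at 77234645 in wt. Methylation does not show whether the gene is disrupted, so these values are no check of the knock-out.

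Over the 1375 positions the median methylation was 92.9 % in wt and 10.7 % in βerko, values that the selection fixes to a large extent. In wt 394 positions were at 100 %, in βerko 159 were at 0 %, and 55 were both. Just inside the wt criterion were positions in Prkg1 (80.2 % of 86 reads), Scn3a (80.3 % of 76 reads) and Pecam1 (80.4 % of 51 reads). Just inside the βerko criterion were positions in Grk6 (19.8 % of 96 reads), Fam5c (19.8 % of 81 reads) and Hk1 (19.7 % of 76 reads). On the other side, 92 positions in GENCODE introns were below 20 % in βerko but at exactly 80 % in wt, among them 1 each in Gal3st1, Gm3468 and Ahnak, and 89 were above 80 % in wt but at exactly 20 % in βerko, among them 1 each in Brsk1, Arid1b and Mkx.

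The positions were covered by 23 reads in wt (median, 5 to 136) and by 46 in βerko (5 to 137). More reads were counted in βerko than in wt at 1132 of 1375 positions, with a median ratio of 1.70. The same ratio was 2.13 at hypomethylated promoter positions, 2.05 in exons and 1.60 outside genes, and 0.909 at the positions that were more methylated in βerko. The part of this unequal depth in the methylation values was not tested. At 750 positions both libraries had at least 20 reads, and at 260 a library had fewer than 10. At 1205 positions the wt interval lay wholly above 50 % and the βerko interval wholly below it, whereas at 31 positions the intervals of the libraries overlapped.

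Among positions that were above 80 % in wt, loss to below 20 % was also found outside introns. Gene models of GENCODE, used for all covered positions, placed 1173 of the 1375 positions in introns, 137 between genes, 57 in promoters and 8 in exons. Of 93267 intronic positions above 80 % in wt, 1.76 % were below 20 % in βerko, a further 15.7 % were between these values, and 82.5 % stayed above 80 %. The 1.76 % were 1638 positions, among them the 1173. The others had too few reads or were annotated outside introns in the deposited data, and they enter all such shares below. The share below 20 % was 1.67 % between genes, 2.50 % in exons and 7.53 % in promoters, and it was 0.728 % of all covered positions whatever their wt level. The table of all covered positions carries no read counts, so that these shares, and the values of second strands and neighbours below, have an unknown depth and no read minimum, unlike the 1375 positions.

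The positions were spread over 858 host gene symbols, of which 606 had a single position and 51 had 5 or more. Bcor, a co-repressor of BCL6 and part of a Polycomb complex, had the most with 15, all in the first intron and in 8 separate places over chrX:11645952-11737294. They averaged 95.6 % in wt (80.7 to 100 %) and 9.36 % in βerko (0 to 19.1 %). Tbx15, a T-box factor of limb and skeletal development, had 13 positions in the first intron (chr3:99060469-99065258), with 83.3 to 100 % in wt and 0 to 2.44 % in βerko. At the deepest of them, 99065258, 94.4 % of 71 reads were methylated in wt and 0 % of 125 reads in βerko.

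In Tbx15 the average in βerko MEFs was 0.385 %, whereas in most other host genes with many positions a remainder was read. Nkx6-2, a homeobox gene of the neural tube, had 13 positions that averaged 96.7 % in wt and 11.9 % in βerko, with a median of 10 wt reads. AK077405, a transcript without a described role, had 13 positions averaging 96.1 % and 6.70 %. The next 3 genes had 12 positions each: Rnf220, an E3 ubiquitin ligase, averaged 92.8 % in wt and 5.51 % in βerko, Rapgef5, an exchange factor for Rap GTPases, 94.1 % and 6.13 %, and 5730507C01Rik 95.5 % and 6.01 %.

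Hoxd10, a homeobox gene of the posterior axis and limb, had 10 positions within 152 bp of its only intron, with 87.2 to 100 % in wt and 5.62 to 17.4 % in βerko. Glis1, a Krüppel-like zinc finger factor, had 10 positions in its introns 4 and 8, and Ptprs, a receptor tyrosine phosphatase of axons, had 10 in its first intron. They averaged 89.8 % in wt and 5.89 % in βerko in Glis1, and 93.8 % and 7.68 % in Ptprs. Ephb2, an ephrin receptor, had 9 positions at 95.3 % and 9.96 % on average. Unc45b, a myosin chaperone of muscle, and the overlapping Gm12575 shared 9 positions at 93.0 % and 13.2 %.

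**Figure D1:**
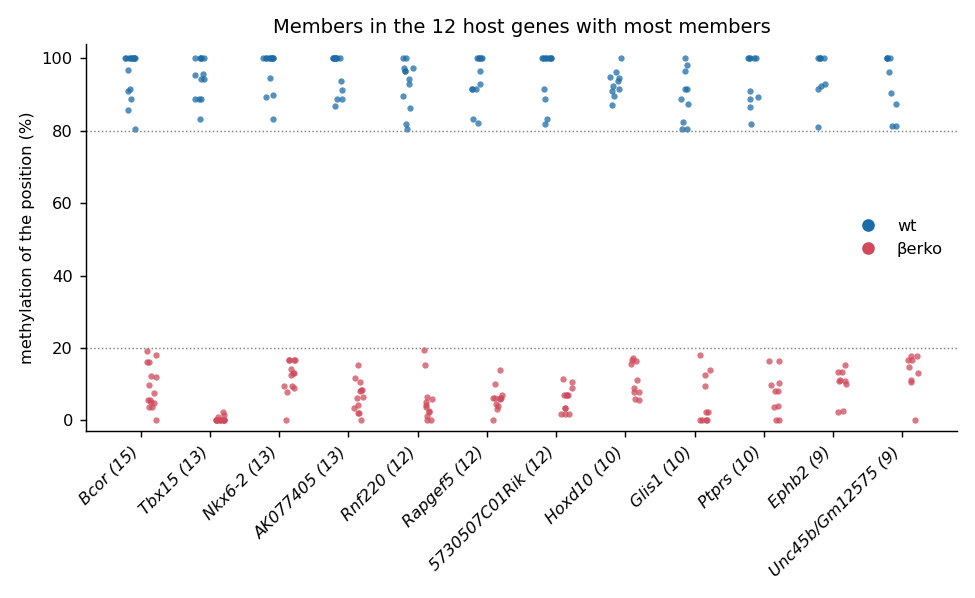
Methylation (%) of each hypomethylated intronic position in wt (blue) and βerko (red) MEFs, for the 12 host genes with most such positions, whose number is given in brackets. Each point is 1 cytosine, dotted lines mark the selection criteria of 80 % and 20 %, and in Tbx15 all 13 βerko values lie at or below 2.44 %.

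Some neighbouring positions met the criteria together, less often than in promoters and exons. With gaps of at most 100 bp, 341 of the 1375 positions (24.8 %) fell into 81 runs of at least 3 positions, and 25 runs held 5 or more. The share in runs was 45.9 % for hypomethylated promoter positions, 50.1 % in exons and 22.2 % outside genes. Joining positions within 500 bp left 924 places, of which 712 held a single position. The run with most positions was in 5730507C01Rik (chr12:18521675-18521741), where 12 positions at 9 CpGs averaged 95.5 % in wt and 6.01 % in βerko. It was read with 9 wt reads and 56 βerko reads by the median, so its wt values are the less certain ones. The Runx3 run, in a gene for a haematopoietic and skeletal transcription factor, held 8 positions (chr4:134709041-134709339) at 95.2 % in wt and 5.64 % in βerko, and GENCODE counts this stretch as promoter.

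In 6 of the 81 runs βerko MEFs averaged at most 1 %. They lay in Tbx15 (2 runs), Glis1, Fgf18, 2310079N02Rik and Gpr126. The Glis1 run (chr4:107301746-107301808) read 80.7 to 100 % of 31 to 54 reads in wt and 0 to 2.33 % of 42 to 54 reads in βerko. A remainder of 5 % or less was found in 12 runs, and the other runs had higher averages.

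Strands of the same CpG differed within the Hoxd10 run. On the plus strand, CpGs at 74530835, 74530846 and 74530850 were at 11.2 %, 9.09 % and 5.62 % in βerko. On the minus strand of these CpGs, which RRBS reads from the opposite end of a fragment, βerko was at 60 %, 70 % and 90 %. At 74530898 the plus strand was at 100 % and the minus strand at 15.6 % in βerko, whereas at 74530916 both strands were low, with 6.02 % and 7.81 %. In wt all 18 covered cytosines of the run were between 85 and 100 %. Over all 18 the mean was 94.2 % in wt and 36.02 % in βerko.

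**Figure D2:**
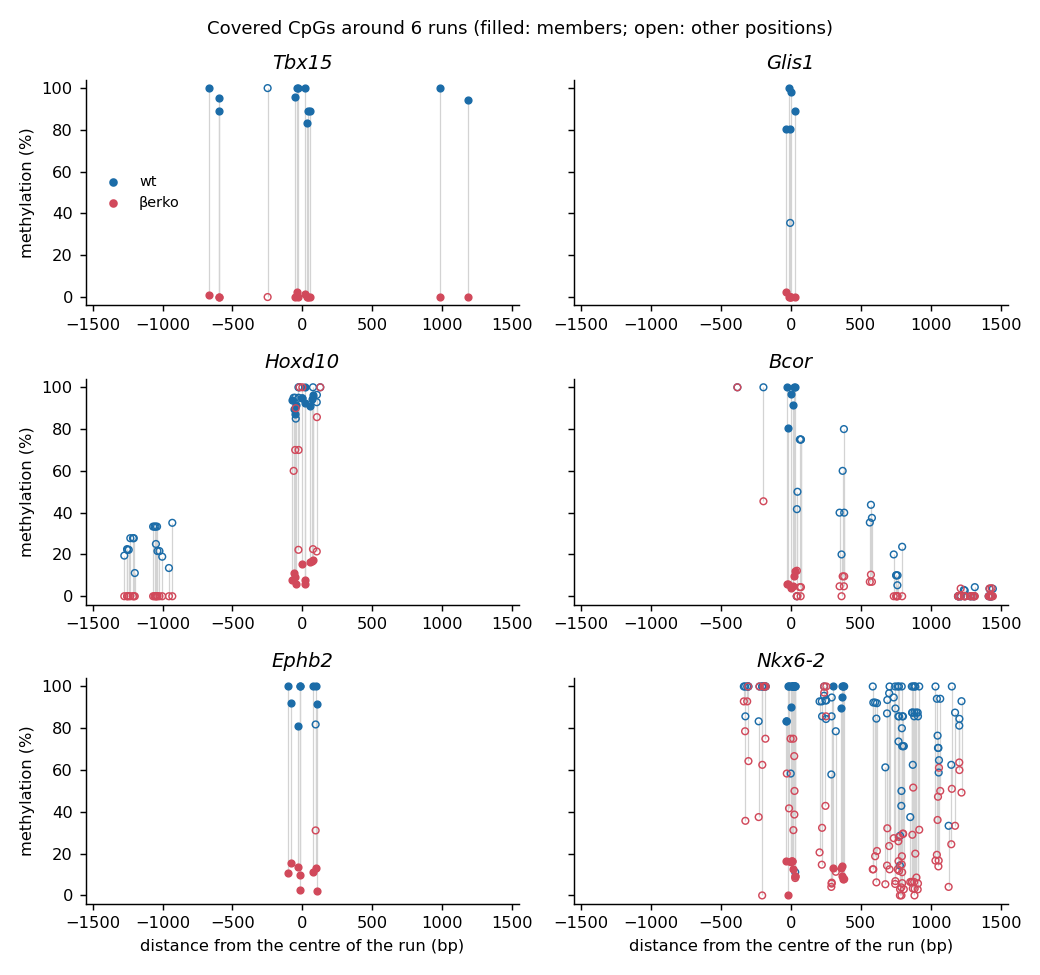
Methylation (%) of all cytosines covered in both libraries within 1500 bp of the centre of 6 runs, in wt (blue) and βerko (red). Filled points met all criteria and open points did not, and grey lines join the values of a cytosine. Some open points were above 80 % in wt and below 20 % in βerko but failed the annotation or read criteria. In Nkx6-2 the 95 open positions average 85.1 % in wt and 33.4 % in βerko.

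Around Nkx6-2, loss went beyond the selected positions: 80 of the 95 other covered cytosines within 1500 bp were lower by at least 20 points in βerko. Around Bcor this was so for 16 of 43, whose average was already low in wt (22.5 % against 5.36 % in βerko), and around Hoxd10 for 20 of 29 (51.9 % against 25.6 %). At Tbx15, Glis1 and Ephb2 only 1 other cytosine was covered in the same distance.

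Other strands of the affected CpGs and their neighbours were mostly lower in βerko as well. The second strand was covered for 231 positions, and 129 of these second strands had not been selected themselves. Their median was 86.4 % in wt MEFs and 22.5 % in knock-out MEFs, 88 of the 129 (68.2 %) were lower by at least 40 points in βerko, and 20 were within 20 points. Among all intronic positions above 80 % in wt, the second strand was lower by that much at 9.34 %. Strands of a CpG come from the same cells and are not independent.

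Within 100 bp, 1178 positions had other covered cytosines, whose mean was 77.3 % in wt by the median and 24.3 % in βerko. The median difference of the neighbours was -41.4 percentage points. Neighbours were lower by at least 20 points around 847 positions (71.9 %), against 11.0 % of all intronic positions above 80 % in wt, where the median difference was 0 around positions that had not been selected. Without neighbours that met the criteria themselves, the median difference was -31.9 points over 1106 positions. Around the other hypomethylated positions, neighbours were lower by at least 20 points at 83.5 % in promoters, 84.3 % in exons and 72.3 % outside genes. Neighbours share reads with the position, so these values describe the extent of a region and are not a second measurement.

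**Figure D3:**
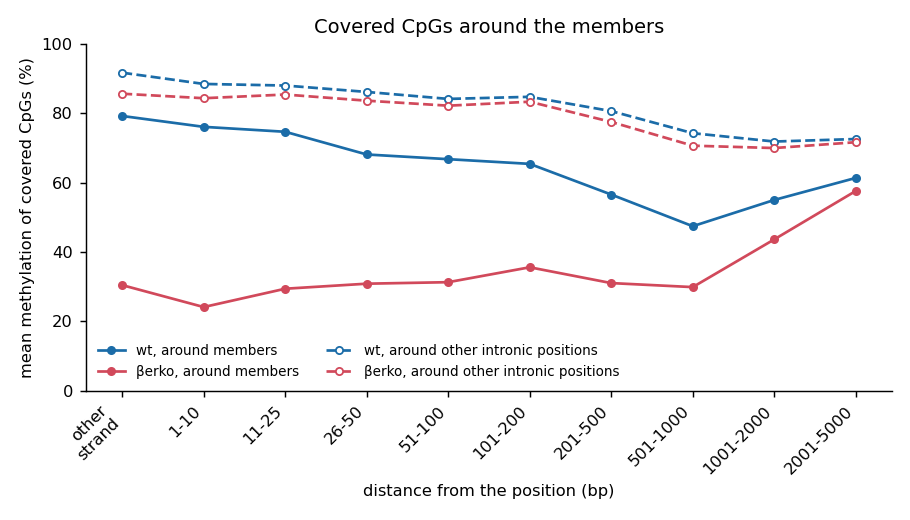
Mean methylation (%) of covered cytosines by distance (bp) from the hypomethylated intronic positions (filled, solid lines) and from every 10th other intronic position above 80 % in wt (open, dashed lines), in wt (blue) and βerko (red). Around the selected positions the means are 76.1 % and 24.1 % at 1 to 10 bp and come together at 61.4 % and 57.6 % at 2001 to 5000 bp.

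The difference became smaller with distance. The median of the paired differences was -58.1 points at 1 to 10 bp, -35.4 at 51 to 100 bp, -21.9 at 201 to 500 bp, -10.1 at 501 to 1000 bp and -1.95 at 2001 to 5000 bp. Methylation in wt also fell away from the positions, from a mean of 76.1 % at 1 to 10 bp to 47.5 % at 501 to 1000 bp. Around other intronic positions above 80 % in wt, this mean went from 88.5 % to 74.3 % over the same distances.

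A minority stood alone. Of 764 positions with at least 3 covered neighbours, 154 (20.2 %) had neighbours whose mean was within 20 points between the libraries. The neighbours of these 154 were at 52.7 % in wt and 43.9 % in βerko by the median, and in 17 cases they were below 20 % in both libraries and in 17 above 80 % in both. In Col1a1, which encodes a chain of collagen I, the most abundant collagen of fibroblasts, chr11:94802778 in intron 14 was at 94.1 % of 68 reads in wt and 1.35 % of 74 in βerko, while its 3 neighbours were at 87.1 % and 82.7 %.

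Within genes, the positions were closer to transcript starts than the methylated intronic positions at large. Of the 1173 positions in GENCODE introns, 50.6 % (47.7 to 53.5 %) were in the first intron, against 30.7 % of all intronic positions above 80 % in wt. The share in the last intron was 11.3 % and 11.4 %. The median distance to the nearest transcript start was 3090 bp, against 10563 bp, and 351 positions (29.9 %) were within 1000 bp of one, against 8.43 %. Intron length differed less, with medians of 16746 bp and 15147 bp.

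Read the other way, 6.90 % of intronic positions above 80 % in wt that lay within 1000 bp of a transcript start were below 20 % in βerko. This share was 3.63 % at 1000 to 2000 bp, 1.66 % at 2000 to 5000 bp and 0.713 % beyond 50000 bp. In the first intron it was 3.12 % and in later introns 1.15 %. Over 2000 bp from any transcript start the shares were 1.39 % (1.23 to 1.55 %) in the first and 0.940 % (0.862 to 1.02 %) in later introns. Positions close to each other are not independent, so these intervals are too narrow.

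**Figure D4:**
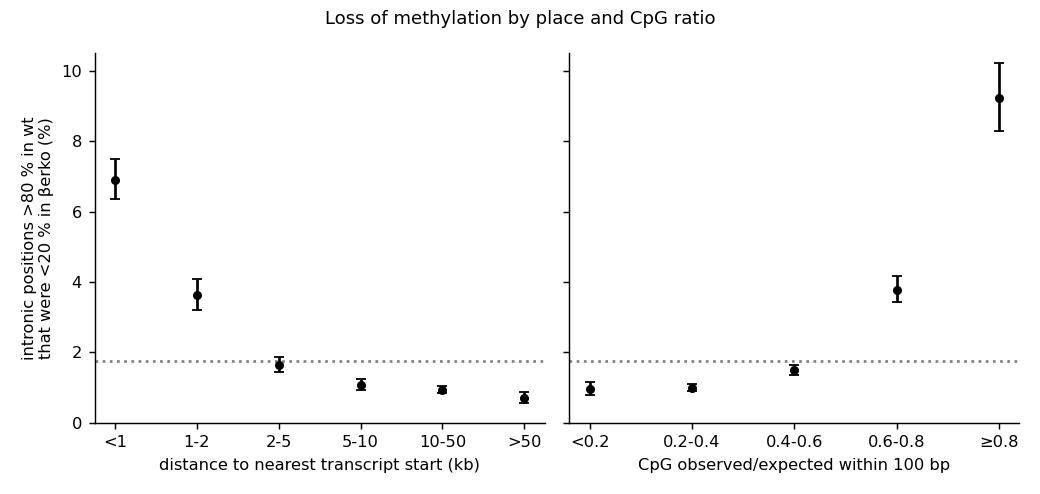
Share (%) of intronic positions above 80 % in wt that were below 20 % in βerko, by distance to the nearest transcript start (left, kb) and by the ratio of observed to expected CpGs within 100 bp (right). Points are shares with exact 95 % intervals, the dotted line marks the share over all intronic positions, and the share goes from 6.90 % within 1000 bp of a start to 0.713 % beyond 50000 bp and from 0.954 % to 9.23 % with the CpG ratio.

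The surroundings of the positions held more CpGs than those of methylated intronic positions at large. Within 100 bp on both sides they had a median of 8 CpGs, against 5 for all intronic positions above 80 % in wt, a GC content of 57.9 % against 52.5 %, and a ratio of observed to expected CpGs of 0.495 (0.474 to 0.511) against 0.380. A GC content of at least 50 % with a CpG ratio of at least 0.6, the composition of a CpG island, was found around 34.8 % of the positions and 10.2 % of all. With 1 position per place of 500 bp the share was 23.95 %. The median CpG ratio was then 0.416 (0.395 to 0.445), outside the interval above and nearer to 0.380. The values of all intronic positions were not reduced in this way. Over all GENCODE introns, positions outside the 1375 included, loss to below 20 % was seen at 0.954 % with a CpG ratio under 0.2. With a ratio of 0.8 or more it was seen at 9.23 %. Compared with the other hypomethylated positions, the median ratio of 0.502 over all 1375 was close to that outside genes (0.487) and under that in promoters (0.776) and exons (0.798).

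Short words of transcription factor binding sites were counted within 100 bp on both sides and on both strands, as a description of letters and not of binding. GCCNNNGGC, a word of AP2 factors, was found around 17.6 % (15.4 to 19.9 %) of the positions and 9.20 % of all intronic positions above 80 % in wt. Where the CpG ratio was at least 0.6 the shares were 26.2 % and 11.2 %, and below that 12.6 % and 8.87 %. The E-box CAGCTG was found around 15.2 % and 12.5 %, and GGNGGCAG, from the core of the CTCF motif, around 11.3 % and 9.17 %.

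For the other words the shares were lower than or close to those of all intronic positions above 80 % in wt: Runx (TGTGGT, 10.7 % against 13.7 %), TEAD (GGAATG, 10.1 % against 11.1 %), AP-1 (TGANTCA, 5.20 % against 5.06 %), Rfx (GTTGCNA, 4.01 % against 4.53 %) and NRF1 (CGCATGCG, 0.171 % against 0.143 %). GGTCA, the core word of an oestrogen response element, was present around 29.4 % (26.8 to 32.1 %) of the positions and 34.3 % of all. Split by CpG ratio, the intervals reached the share of all. For GGTCA they were 20.5 to 28.9 % against 28.4 % at a ratio of at least 0.6, and 28.9 to 35.7 % against 35.3 % below that. For Runx they were 4.58 to 9.59 % against 8.45 %, and 10.6 to 15.5 % against 14.6 %. The palindrome of this word with 3 bases between its arms was found around 0 of 1173 positions, for which the exact interval reaches up to 0.314 %, and around 0.0279 % of all.

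Promoters of the host genes were mostly unmethylated in both libraries, but less often than those of other genes with an intronic position above 80 % in wt. Of 647 protein-coding host genes by GENCODE, 459 had at least 5 covered cytosines between 500 bp before and 100 bp after a transcript start. In 330 of them (71.9 %) the mean was below 20 % in both libraries, against 83.5 % of 5694 other genes. The libraries were within 20 points in 404 (88.0 %), against 95.1 % of the other genes. In 51 (11.1 %) the promoter mean was lower by at least 20 points in βerko, against 5.05 % of all such genes with an intronic position above 80 % in wt. In 4 it was higher by that much.

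The promoter was lower together with the intron in Sema4b, a semaphorin, with 84.9 % in wt and 8.85 % in βerko over 18 cytosines, and in 5730507C01Rik, with 76.5 % and 18.8 % over 23. Nkx6-2 had a promoter mean of 78.1 % in wt and 36.5 % in βerko, and Bcor 26.6 % and 7.67 %. In contrast, the promoters of Tbx15 (0.409 % and 0.157 %), Ephb2 (0 % and 0.223 %), Ptprs (1.55 % and 2.06 %) and Glis1 (3.03 % and 0.158 %) were unmethylated in both libraries.

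**Figure D5:**
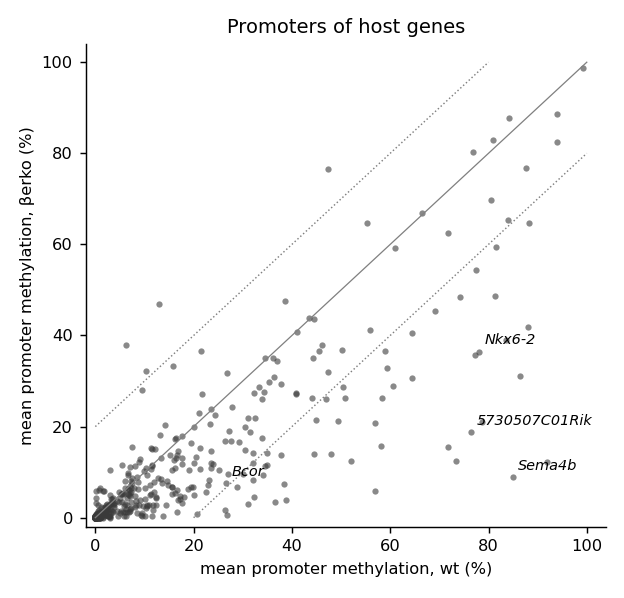
Mean promoter methylation (%) in wt against βerko for the 459 host genes with at least 5 covered promoter cytosines. Each point is 1 gene, the solid line marks equal values and the dotted lines a difference of 20 points, below which 51 genes lie on the βerko side and beyond which 4 lie on the other.

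Other cytosines of the same introns differed less. The 735 GENCODE introns with a hypomethylated position had a median of 13 covered cytosines, and 546 of them held 1 such position. In the 700 introns with further covered cytosines, the median of their means was 66.1 % in wt and 51.5 % in the knock-out, and the median difference was -7.34 points. In 170 of the 700 (24.3 %) they were lower by at least 20 points. Over all 32565 introns with a covered cytosine, the mean of all their covered cytosines was lower by that much in 7.09 %. This second share includes the hypomethylated positions and introns of any wt level, so the shares are not measured alike.

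By function, 5 lists of genes were examined. They were chosen with earlier results of these data known, so their shares are a description and no independent evidence for a function. Among all 10831 genes with an intronic position above 80 % in wt, 7.85 % had at least 1 that was below 20 % in βerko. Of 133 developmental transcription factors with such a position, 49 (36.8 %) had a loss, at 7.91 % of their 2997 positions. The shares of this and the other lists count all covered positions in GENCODE introns, not only the selected hypomethylated ones. In this list 237 positions were lost, whereas the selected set held 139 positions in 41 of its genes. The 139 is a sum over genes, in which a position shared by Hoxa3 and Hoxa4 counts for each. The list had a median of 10 positions per gene against 4 over all genes, and the part of this in the share of genes was not tested. Over all genes 1.76 % of positions were lost.

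Besides Tbx15, Nkx6-2, Hoxd10 and Runx3, the factors with most positions were Gata3, a zinc finger factor of T cells and epithelia, Camta1, Zic5, Hoxa3 and Isl2. Gata3 had 8 positions that averaged 94.0 % in wt and 11.7 % in βerko. Zic5, of the neural crest, had 7 at 97.7 % and 8.52 %, with a median of 9 wt reads. Tbx5, required for the forelimb and heart, had 5 positions in introns 2 and 3 (chr5:120287501-120290125). In wt they were at 90.6 % of 64 reads, 90.5 % of 63, 84.2 % of 19, 81.2 % of 48 and 94.1 % of 34. In βerko 4 of these 5 were at 0 % of 33 to 127 reads and the remaining one at 2.38 % of 84.

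Of 108 genes of signalling ligands and receptors with an intronic position above 80 % in wt, 22 (20.4 %) had a loss, at 2.95 % of 1526 positions. Fgf18, a fibroblast growth factor of bone and cartilage, had 6 positions in its last intron (chr11:33022973-33023287). They were at 81.8 to 100 % in wt and at 0 % in βerko at each, with 99 βerko reads at the deepest. Erbb4, a receptor of the epidermal growth factor family, had 6 at 93.6 % and 1.87 % on average. The ligands Wnt3 (3 positions, 90.9 % and 1.43 %), Wnt4 (4 positions, 95.8 % and 4.39 %) and Dhh (4 positions, 89.8 % and 12.9 %) followed.

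Of 91 genes of axon guidance and adhesion, 14 (15.4 %) had a loss, at 1.84 % of their positions, a share of positions close to that over all genes. The median number of positions per gene was 13 in this list, 10 in genes of mesenchyme and cytoskeleton, 6 in signalling genes and 6.5 in chromatin genes, against 4 over all genes, and its part in the shares of genes was not tested. Besides Ephb2 they included Cdh22, a cadherin with 5 positions at 90.3 % in wt and 13.98 % in βerko, and Sema4b with 4 at 91.0 % and 11.96 %. Of genes of mesenchyme and cytoskeleton, 15 of 103 (14.6 %) had a loss, at 1.63 % of positions. Tns1, which links actin to integrin adhesions, had 7 positions at 94.0 % and 4.42 % with a median of 8 wt reads, and Col23a1, a transmembrane collagen, 3 at 100 % and 5.45 %. In genes of chromatin and DNA methylation 7 of 60 (11.7 %) had a loss, at 1.12 % of 626 positions, and among them Arid3b had 2 positions and the others had 1.

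The positions were found on 20 chromosomes, with most on chromosome 4 (179) and chromosome 11 (146). Of intronic positions above 80 % in wt, the share below 20 % in βerko was 2.92 % on chromosome 4 and 2.14 % on chromosome 11. Among these 20 chromosomes it was lowest on chromosome 15 with 0.767 % (0.525 to 1.08 %). Chromosome 18 was close to that with 0.782 % (0.502 to 1.16 %). On the X chromosome, which held 50 of the 1375, it was 5.41 % (4.205 to 6.83 %), and 4.65 % (3.48 to 6.07 %) without Bcor. A second X-linked run lay in Cited1, a transcriptional co-activator, with 5 positions (chrX:99445422-99445451) at 87.1 to 100 % in wt and 0 to 16.7 % in βerko. CpG-rich promoter cytosines of the X chromosome averaged 10.2 % in wt and 7.66 % in βerko, and those of the autosomes 7.19 % and 4.95 %. In addition, 145 cytosines of the Y chromosome were covered in both libraries.

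In windows of 5 Mb, those with most positions were on chromosome 4 at 135 to 140 Mb (32 positions in 16 places, with Ephb2, Igsf21, Wnt4 and Pax7) and on chromosome 11 at 115 to 120 Mb (31 positions in 22 places). Of intronic positions above 80 % in wt, 3.95 % and 2.90 % were below 20 % in βerko in these windows, against 1.76 % over all. The window with Nkx6-2 and Tspan4 on chromosome 7 at 145 to 150 Mb held 24 positions in 5 places, with a share of 10.1 % (6.85 to 14.1 %). Among windows with at least 12 positions the share was higher in 3 others, on chromosome 12 at 115 to 120 Mb (23.3 % of 60, with Rapgef5) and at 15 to 20 Mb (13.8 % of 87, the run of 5730507C01Rik) and on the X chromosome at 10 to 15 Mb (10.6 % of 141, with Bcor). Within 10 Mb of Esr2 18 positions were found, and the share was 2.05 % (1.24 to 3.18 %), against 2.99 % (2.38 to 3.69 %) on the rest of chromosome 12. Of the 82 lost positions on that rest, 14 lay in the window with Rapgef5 and 12 in that of 5730507C01Rik. Neighbouring positions are not independent, so these intervals are too narrow.

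The 10 best covered positions, 1 per gene, had 92 or more reads in both libraries. Pou2f3, a POU factor of tuft cells and keratinocytes, had 98.0 % of 101 reads in wt (93.0 to 99.8 %) and 1.47 % of 136 reads in βerko (0.179 to 5.21 %) at chr9:43014547. Card10, a scaffold of NF-κB signalling, had 96.6 % of 119 reads and 5.61 % of 107 at chr15:78632625. Akap6, an anchor of protein kinase A, had 99.3 % of 135 and 17.1 % of 105 at chr12:53948912, in a window with a CpG ratio of 0.0681. Nfix, a nuclear factor I gene, had 96.6 % of 118 and 16.5 % of 109, and Meis2, a homeobox gene, 95.7 % of 92 and 14.5 % of 110. The other 5 were in Gpr45, Slc39a11, Ctdspl2, Gm3932 and Col28a1, with 80.6 to 98.9 % in wt and 6.09 to 19.0 % in βerko.

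Hypomethylated intronic positions were also looked up in Nav2, Sfmbt2 and Sorcs2. Nav2, a neuron navigator gene, had 2 positions. At chr7:56583486 in the first intron, 97.9 % of 48 reads were methylated in wt (88.9 to 99.9 %) and 3.70 % of 27 reads in βerko (0.0937 to 19.0 %). At chr7:56777663 in intron 11 the values were 92.9 % of 14 reads and 16.7 % of 6 reads, and the only covered neighbour was at 7.14 % and 16.7 %. Sfmbt2, a Polycomb gene, had 1 position at chr2:10293199 with 100 % of 5 reads in wt (47.8 to 100 %) and 11.1 % of 9 reads in βerko (0.281 to 48.2 %), so that its intervals overlap, and its 3 neighbours averaged 66.7 % and 18.5 %. Sorcs2 had none.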

How the data were processed

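RRBS libraries of wt and βerko MEFs were sequenced on an Illumina GA IIx. Per the labels, the authors used CASAVA 1.4 and the build mm9, and per the study's methods they mapped reads and annotated positions with Genomatix software. The deposited table of common positions gives the percent methylation of each cytosine in both libraries, and the deposited annotation tables give for differentially methylated positions the count of reads per library, transcripts and promoters. The depth of the other covered positions is therefore unknown, and no read minimum was applied to them. Percent times reads gave whole methylated reads within 0.005 percentage points.

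Positions were joined by chromosome, position and strand. All covered positions were also placed by GENCODE gene models of NCBIM37, with promoters from 500 bp before to 100 bp after a transcript start, and composition and words were read from that genome. Host symbols were matched to RefSeq names (800 of 858). Exact intervals were computed with SciPy in Python, and functions were checked on simulated data. Around 1367 of 1375 positions the 32 surrounding bases occurred once in the genome.

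The positions and the 5 gene lists were chosen with earlier results of these data known. Genes named were Esr2, the 12 host genes and 5 runs with most positions (ties included), the 10 deepest positions (1 per gene), members in Nav2, Sfmbt2 and Sorcs2, positions next to each criterion, and up to 4 genes per list with most positions. Tbx5, Wnt3, Camta1, Cited1, Pax7, Igsf21, Tspan4, Isl2, Hoxa3, Zic5, Col1a1, the promoters of Sema4b and runs at or below 1 % in βerko were named after their values were seen. No test was run, since each group has 1 library.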

Additional observations from a re-analysis of the deposited data

How the results depend on the processing

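No paired analysis was possible because each group has 1 library, and for the same reason no replicate could be left out. The number of positions was 1375, with 750 left at a minimum of 20 reads and 396 with criteria of 90 % and 10 %. It stayed within a factor of 1.5 with 10 reads (1115) and GENCODE introns (1589). Merging the strands of the selected positions alone left 1324 CpGs. Second strands that had not been selected were not merged, so this count cannot show whether the number depends on strand. The intronic share of hypomethylated positions was 23.8 %, with 25.8 % at 20 reads and 29.4 % with 1 position per 500 bp. Of the 81 runs 25 had at least 5 positions. The neighbour difference of -41.4 points was -46.8 within 50 bp, -30.1 within 500 bp and -31.9 without hypomethylated neighbours, and its direction was kept in each. The CpG ratio of 0.495 was 0.560 within 50 bp, 0.467 within 250 bp and 0.416 with 1 position per 500 bp. Word shares fell in the window of 50 bp, which holds fewer letters: AP2 11.3 %, E-box 8.01 %, AP-1 2.98 %, TEAD 5.46 %, Runx 5.63 %, CTCF 6.14 %, Rfx 2.30 % and GGTCA 15.5 %. With 1 position per 500 bp the AP2 share was 14.2 %. In the remaining 21 of 41 alternatives, the share in the first intron and the difference within introns among them, the value stayed within its interval or, for counts, within a factor of 1.5. Some of these could not have moved: the count with merged strands, and the share of the palindrome, which was already 0 in the main setting. At 260 positions a library had fewer than 10 reads, which widens their intervals, and 1 pooled library per group leaves the spread between MEF lines unknown.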
